A study of Mus musculus with 48 samples.

Results

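The genes described here were 10 mouse zinc finger genes, Zfp866, Zfp760, Zfp60, Zfp87, Zfp235, Zfp626, Zfp658, Zfp113, Zfp933 and Zfp26, whose transcripts were lower in C2C12 muscle cells after 1 h of mechanical stretch than in non-stretched cells of the same time. They were picked from the 343 genes named Zfp plus a number among the 47480 gene symbols in each count table, and the pick used the values at 1 h. The 1 h levels are therefore a description with no test, while the values at 3 h and 6 h came from other libraries that the pick did not use. Earlier results of these data were known when the genes were chosen, so the later values may not be fully independent of the choice. The 10 are not the numbered Zfp genes with the lowest values in every respect: 24 others in myoblasts and 53 others in differentiated cells had a more negative log2 fold change at 1 h than the weakest of the 10 in that stage (Zfp933 at -0.63 and Zfp26 at -0.38).

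C2C12 is an established mouse line that proliferates as single myoblasts and fuses into multinucleated muscle cells after serum withdrawal. RNA came from 48 libraries in 12 groups of 4, made of 2 stages (myoblasts and cells differentiated for 4 days), 2 conditions and 3 lengths of time (1 h, 3 h or 6 h). Stretched cells were on flexible collagen-coated plates that a Flexcell device deformed equally in all directions in repeated cycles, and RNA was taken as soon as stretching stopped. Non-stretched cells sat on the same plates without deformation, and each time point had a non-stretched group of its own. All groups are of this single line, and the labels name no genetic change in any of them. In each stage, 1 experiment gave replicates 7 and 8 and another gave replicates 9 and 10, except that the stretched differentiated group at 1 h consisted of replicates 4, 7, 8 and 9, with replicate 4 the only library of its experiment. The paper calls the experiments independent and gives 2 separate samples per experiment for myoblasts. The 4 libraries of a group are thus fewer than 4 independent experiments, while the main fits treated them as separate. Nothing says that replicates were independent thaws of the line, so p-values measure the spread between these libraries, which may be partly technical.

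C2H2 zinc finger proteins bind DNA through tandem fingers, each a short fold held together by a zinc ion that contacts a few bases. In mammals many of them also carry a KRAB domain, which recruits the corepressor TRIM28 (KAP1), and through it the histone methyltransferase SETDB1 and heterochromatin protein 1, to silence the bound DNA, often a transposable element. Their genes lie in clusters that grew by tandem duplication. The role of each of the 10 genes in muscle is not described here, beyond this shared family.

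On the mm10 build with GENCODE vM21 gene models, Zfp866 lies at chr8:69761326-69791178 (minus strand), Zfp760 at chr17:21707741-21725636 (plus), Zfp87 at chr13:67515781-67526177 (minus), Zfp113 at chr5:138139702-138155744 (minus), Zfp933 at chr4:147822986-147848366 (minus) and Zfp26 at chr9:20428449-20460162 (minus). The other 4 lie on chromosome 7, all on the plus strand, with Zfp235 at chr7:24134169-24143241, Zfp60 at chr7:27731389-27753702, Zfp626 at chr7:27807196-27822916 and Zfp658 at chr7:43562256-43575461. All 10 are annotated as protein coding. Zfp60 and Zfp626 are neighbours, 53494 bases apart with no other tested gene between them. Within 1 Mb of a member lay a median of 6 other numbered Zfp genes (2 to 19), against a median of 3 (0 to 19) for the 295 other numbered Zfp genes that were tested and placed.

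The longest coding sequence of each gene, translated by script, matched the C2H2 finger pattern between 8 times (Zfp113) and 22 times (Zfp26), with 21 in Zfp658, 19 in Zfp60, 17 in Zfp626, 16 in Zfp760, 15 in Zfp87 and Zfp235, and 12 in Zfp866 and Zfp933. The median of the 10 was 15.5 matches, against 10 (0 to 36) over 293 other numbered Zfp genes. A letter pattern of the KRAB A box was found in 7 of the 10 (70%) and in 119 of the 293 others (40.6%). Zfp866, Zfp235 and Zfp113 had no match, which says only that this pattern is not in the coding sequence read. The genes were picked on expression, so these shares describe the pick and were not tested.

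RefSeq promoter windows (GRCm38.p6, 250 bases before to 50 after the transcript start, 5′ to 3′ on the gene's own strand) matched 9 of the 10, all but Zfp87. The 3 printed here are those of Zfp866 and Zfp760, which had the lowest stretched level at 1 h relative to their controls, and of Zfp26, which is the only one of the 10 above its control at 3 h in both stages. Capitals mark the CCAAT box (or its reverse complement ATTGG) and the GC box GGGCGG. The windows are chr8:69774862-69775161 (minus) for Zfp866, which starts inside the longer GENCODE gene, chr17:21707491-21707790 (plus) for Zfp760 and chr9:20460111-20460410 (minus) for Zfp26.
Zfp866: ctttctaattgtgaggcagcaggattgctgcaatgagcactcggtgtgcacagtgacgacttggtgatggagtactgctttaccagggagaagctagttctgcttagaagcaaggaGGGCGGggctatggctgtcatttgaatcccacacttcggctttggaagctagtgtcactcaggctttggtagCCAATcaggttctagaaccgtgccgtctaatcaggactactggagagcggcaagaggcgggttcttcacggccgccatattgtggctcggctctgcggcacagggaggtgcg
Zfp760: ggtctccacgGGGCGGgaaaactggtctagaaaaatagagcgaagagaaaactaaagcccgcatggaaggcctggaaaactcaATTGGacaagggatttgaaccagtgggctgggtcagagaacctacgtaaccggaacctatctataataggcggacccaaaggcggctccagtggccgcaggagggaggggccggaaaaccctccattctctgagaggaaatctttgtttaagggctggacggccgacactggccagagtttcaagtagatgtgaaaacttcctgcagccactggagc
Zfp26: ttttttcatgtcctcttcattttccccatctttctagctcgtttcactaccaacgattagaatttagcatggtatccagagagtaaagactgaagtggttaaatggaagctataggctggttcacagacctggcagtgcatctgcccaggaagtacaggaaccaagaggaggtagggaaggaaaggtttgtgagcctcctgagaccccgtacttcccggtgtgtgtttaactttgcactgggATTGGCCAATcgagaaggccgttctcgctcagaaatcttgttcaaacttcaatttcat

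Zfp866 and Zfp760 each held 1 CCAAT and 1 GGGCGG match, and Zfp26 held 2 CCAAT matches on opposite strands, back to back, and no GGGCGG. Searched on both strands, CCAAT was present in 5 of the 9 windows (55.6%, Zfp866, Zfp760, Zfp626, Zfp658 and Zfp26), in 48.2% of the 361 windows of numbered Zfp genes and in 37.4% of all 32817 windows. GGGCGG was present in 3 of 9 (33.3%), against 44.6% and 35.6%. TATAAA, the cyclic AMP response element TGACGTCA, the AP-1 site TGANTCA and a consensus serum response element core were in none of the 9, and their shares over all windows were 13.6%, 1.79%, 7.81% and 0.064%. The median GC content of the 9 windows was 53.3%, that of the other numbered Zfp genes 54.7% and that of all windows 52.7%. A match is a string of letters and not a measured site, and a missing match says nothing of the factor.

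Counts per library summed to between 48447318 and 77080730. Levels are given as CPM, the counts of a gene scaled to a common library total with TMM factors, and were not divided by gene length unless stated. The stage labels matched marker genes: Myog, the transcription factor that starts muscle differentiation, was at 0.394 to 3.30 CPM in the 24 myoblast libraries and at 711 to 943 CPM in the 24 differentiated libraries. Markers of blood, endothelium, epithelium and fat (Ptprc, Pecam1, Epcam and Adipoq) together reached at most 0.232 CPM in any library. Fos and Egr1, immediate early genes, were checked as a sign that the cells had been stretched: in myoblasts at 1 h Fos rose by 2.16 on the log2 scale (SE 0.109, edgeR quasi-likelihood test, adjusted p = 1.51e-06) and Egr1 by 1.40 (SE 0.0346, adjusted p = 2.09e-09), and in differentiated cells Fos rose by 2.76 (SE 0.453, adjusted p = 0.0302), with a wide spread over its 4 stretched libraries (39.8 ± 31.8 CPM, SD, n = 4). Egr1 did not pass there, with a log2 fold change of 1.33 (SE 0.280, edgeR adjusted p = 0.0761).

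After 1 h of stretch, all 10 genes were lower in every stretched library than in every non-stretched library of the same stage, whether only the 4 non-stretched libraries of 1 h or all 12 of the stage were taken. In myoblasts the stretched mean stood between 35.1% (Zfp866) and 64.7% (Zfp933) of the non-stretched mean of that time, and in differentiated cells between 42.9% (Zfp866) and 76.8% (Zfp26). Zfp866 and Zfp760 were the lowest in both stages. These values chose the genes and are given as a description. Of all genes tested, 8.31% in myoblasts and 3.76% in differentiated cells had all 4 stretched libraries below the 4 non-stretched ones at 1 h, and 5.23% and 2.68% had all 4 above. The share of all genes below all 12 non-stretched libraries was not computed. In these bulk cultures, fewer cells that express a gene and less RNA per cell cannot be told apart.

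For Zfp866 in myoblasts at 1 h, the non-stretched libraries (replicates 7, 8, 9 and 10) had 18.7, 16.6, 20.4 and 17.9 CPM and the stretched ones 6.07, 7.44, 6.46 and 5.84 CPM, a log2 fold change of -1.51 (SE 0.0842). The groups were far apart, with the highest stretched library under the lowest non-stretched one. In differentiated cells the non-stretched libraries had 20.8, 21.5, 19.5 and 18.8 CPM and the stretched ones (replicates 4, 7, 8 and 9) 7.01, 10.01, 8.96 and 8.64 CPM, a log2 fold change of -1.22 (SE 0.0991). Replicate 4, the library from an experiment of its own, was the lowest of the 4, and without it the log2 fold change was -1.14.

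Zfp760, a gene with 16 finger matches, had 6.69, 6.82, 7.81 and 6.48 CPM in non-stretched myoblasts and 2.65, 3.12, 2.86 and 2.69 CPM in stretched myoblasts, a log2 fold change of -1.29 (SE 0.0846). In differentiated cells it had 6.23, 5.64, 5.89 and 4.78 CPM without stretch and 2.11, 2.59, 2.29 and 3.36 CPM with stretch, a log2 fold change of -1.12 (SE 0.147). The stretched libraries were below all others in both stages, and replicate 9 of the differentiated cells was the highest of its group.

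Zfp26, the most abundant of the 10 by CPM, was the weakest in differentiated cells. It had 35.4, 29.5, 35.7 and 30.7 CPM in non-stretched and 21.0, 20.8, 22.8 and 20.1 CPM in stretched myoblasts, a log2 fold change of -0.63 (SE 0.0662), and 29.8, 29.1, 30.4 and 28.05 CPM against 23.1, 21.9, 22.1 and 23.1 CPM in differentiated cells, a log2 fold change of -0.38 (SE 0.0444). Its groups did not overlap in either stage. The remaining 7 genes had log2 fold changes from -1.01 (Zfp658) to -0.63 (Zfp933) in myoblasts and from -0.78 (Zfp235) to -0.54 (Zfp933 and Zfp113) in differentiated cells.

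**Figure D1:**
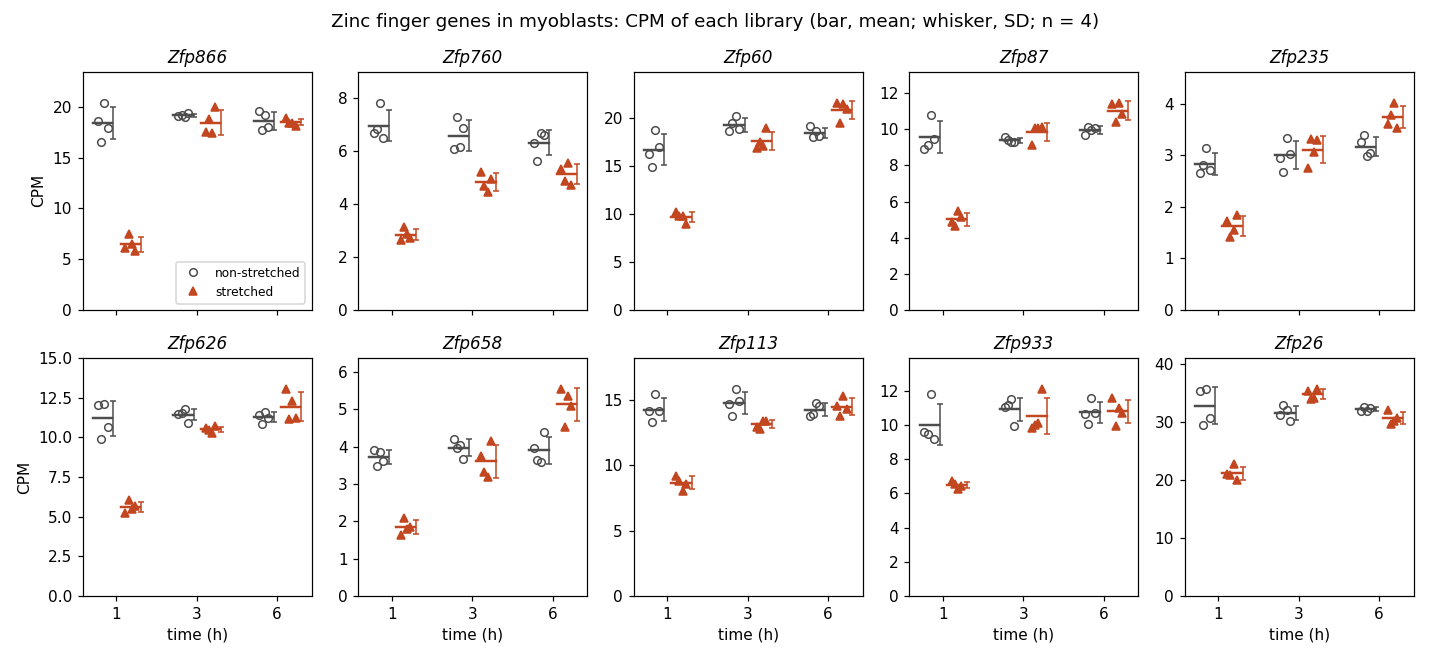
CPM of the 10 genes in myoblasts against time in hours, 1 panel a gene, with open circles for non-stretched and filled triangles for stretched libraries, a bar for the mean and a whisker for the SD (n = 4). At 1 h all stretched libraries sit below the non-stretched ones, and at 3 h and 6 h the groups lie close together, with Zfp760 the gene whose stretched libraries stay lower at both later times.

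A call needed both an adjusted p (Benjamini-Hochberg) under 0.05 in the quasi-likelihood test of edgeR and a log2 fold change of 0.58 or more, up or down. By this rule 10 of the 10 genes passed both limits as lower at 1 h in myoblasts, where 0.997% of all 14938 genes tested did. In differentiated cells 7 of 10 did, where 0.18% of 15538 genes did, and 3 of 10 did when stretched replicate 8 or any 1 of non-stretched replicates 7, 8 and 9 was left out (Zfp760, Zfp60, Zfp235 and Zfp658 lost the call). None of the 10 was higher in either stage, where 0.254% of genes in myoblasts and 0.0901% in differentiated cells passed both limits as higher. Zfp113, Zfp933 and Zfp26 missed the fold limit there, with log2 fold changes of -0.54, -0.54 and -0.38. Since the genes were chosen for this difference, nothing is read from these counts. The median log2 fold change of the 10 was -0.86 in myoblasts and -0.70 in differentiated cells, against 0.00 over all genes in both stages.

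Inside each experiment with both conditions the differences at 1 h were negative. This follows from the lack of overlap between the groups at 1 h, in the values that chose the genes. It is a description and not a replication. In myoblasts, the difference of mean log2 CPM was negative for 10 of 10 genes in both experiments (2 stretched and 2 non-stretched libraries each), from -1.39 to -0.52 in the experiment of replicates 7 and 8 and from -1.64 to -0.63 in that of replicates 9 and 10. In differentiated cells it ran from -1.28 to -0.42 in the experiment of replicates 7 and 8 and from -1.15 to -0.34 in that of replicates 9 and 10, where only 1 stretched library was left at 1 h. The summed level of 4 cell division genes (Mki67, Top2a, Cdk1 and Ccnb1) ran from 291 to 577 CPM in the stretched and from 264 to 378 CPM in the non-stretched differentiated libraries of 1 h, and from 1456 to 1778 against 1503 to 1674 CPM in myoblasts, and its part in the result was not tested.

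**Figure D2:**
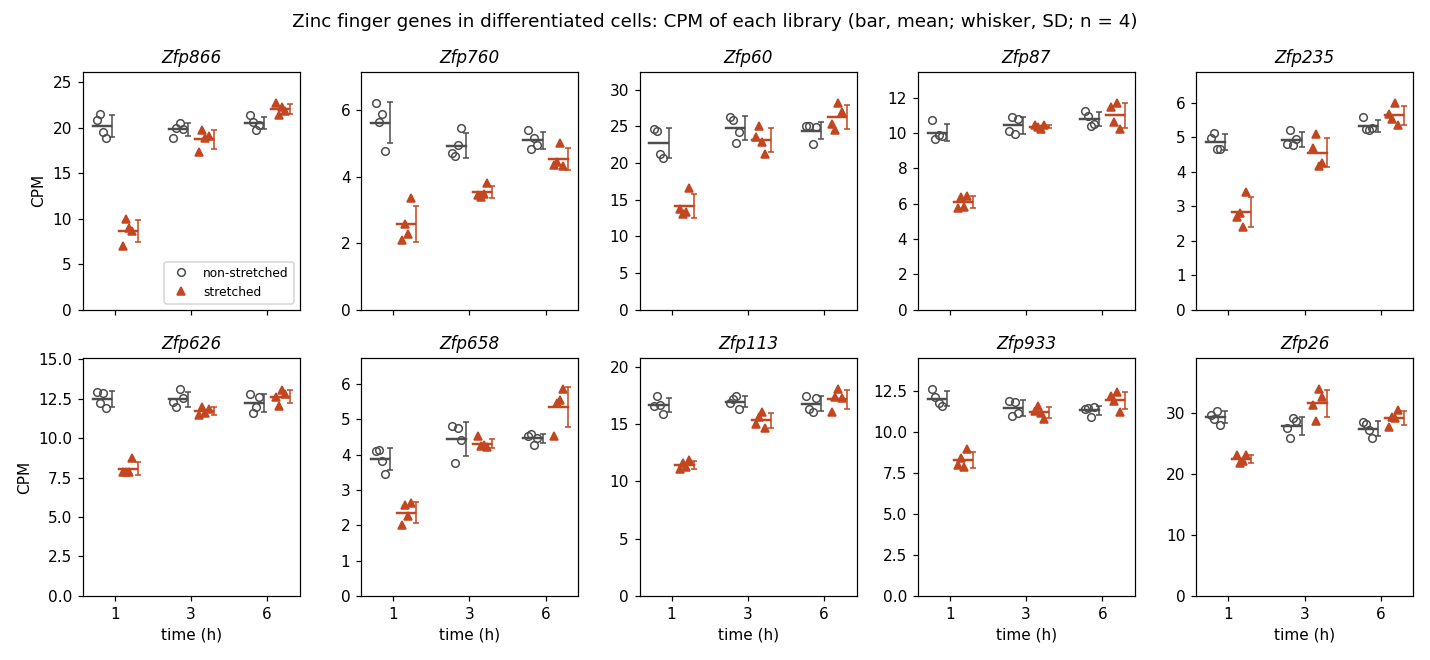
CPM of the 10 genes in differentiated cells against time in hours, drawn as for the myoblasts (circles, non-stretched; triangles, stretched; bar, mean; whisker, SD; n = 4). All stretched libraries of 1 h lie below the non-stretched ones, Zfp760 is also separated at 3 h, and at 6 h its groups overlap.

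The question at 3 h was whether the genes were still lower after a longer stretch. For most of them the gap had nearly closed: the stretched mean was between 88.7% and 110% of the non-stretched mean for 9 of the 10 in myoblasts and between 90.4% and 114% for the same 9 in differentiated cells. Zfp760 was the exception, at 73.3% in myoblasts and 71.7% in differentiated cells. Zfp26 went the other way and was above its control in both stages.

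With edgeR 0 of 10 genes passed both limits at 3 h in either direction, in myoblasts (background 1.25% lower and 0.459% higher of 14813 genes) or in differentiated cells (0.741% and 0.89% of 15513), and with DESeq2 0 of 10 passed as lower. At an unadjusted p under 0.05 in edgeR, 4 were lower and 1 higher in myoblasts, where 3103 and 3037 of the 14813 genes were, and 2 lower and 1 higher in differentiated cells, where 2807 and 2601 of the 15513 genes were. At adjusted p alone, without the fold limit, 3 of 10 were lower in myoblasts (Zfp760, Zfp60 and Zfp113) and 1 higher (Zfp26), where 15.8% of all genes were lower and 16% higher. In differentiated cells 2 of 10 were lower (Zfp760 and Zfp113) and 1 higher (Zfp26), where 11.4% and 10.8% of all genes were. With 10 genes these counts stand near the background, which would give between 1 and 2 genes in each direction. All 4 stretched libraries lay below the 4 non-stretched ones of 3 h for 3 of 10 in myoblasts and 2 of 10 in differentiated cells. Of all genes 16.4% and 13.4% did. All 4 lay above for 1 of 10 in myoblasts and 0 of 10 in differentiated cells, where 14.6% and 12.7% of all genes did. The median log2 fold change of the 10 at 3 h was -0.08 in myoblasts and -0.09 in differentiated cells, against -0.01 and 0.00 over all genes and -0.09 and -0.10 over the other numbered Zfp genes.

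Zfp760 fell at 3 h at adjusted p alone. In myoblasts it had 6.05, 7.29, 6.13 and 6.85 CPM without stretch and 5.21, 4.66, 4.46 and 4.94 CPM with stretch, and in differentiated cells 4.71, 4.62, 4.96 and 5.46 CPM without and 3.47, 3.39, 3.49 and 3.81 CPM with stretch. In both stages every stretched library was below all 12 non-stretched libraries of the stage, a rule whose share of all genes was not computed. The log2 fold change was -0.44 (SE 0.0800, 95% interval -0.62 to -0.27, edgeR adjusted p = 0.00103) in myoblasts and -0.48 (SE 0.0786, 95% interval -0.66 to -0.31, edgeR adjusted p = 0.00199) in differentiated cells. It was negative within each experiment, at -0.43 and -0.46 in myoblasts and -0.44 and -0.51 in differentiated cells. Both intervals reach past the fold limit of -0.58.

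Zfp26 rose at 3 h at adjusted p alone, by less than the fold limit. In myoblasts it had 31.3, 33.0, 32.1 and 30.2 CPM without and 35.4, 34.0, 34.2 and 35.7 CPM with stretch, so that the groups did not overlap, and the log2 fold change was 0.15 (SE 0.0338, 95% interval 0.07 to 0.22, edgeR adjusted p = 0.00545). In differentiated cells it had 27.6, 25.9, 29.2 and 28.7 CPM without and 31.3, 28.7, 34.0 and 32.6 CPM with stretch, with replicate 8 of the stretched libraries inside the range of the non-stretched ones. The log2 fold change there was 0.18 (SE 0.0560, 95% interval 0.06 to 0.31, edgeR adjusted p = 0.0386), and it lost the call without any 1 of 6 of the 8 libraries (non-stretched replicates 7, 8 and 10, stretched replicates 7, 9 and 10; adjusted p up to 0.0994).

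Zfp113, the member with the fewest finger matches, fell slightly at 3 h in both stages at adjusted p alone. The log2 fold change was -0.17 in myoblasts (SE 0.0469, edgeR adjusted p = 0.0165; 14.8 ± 0.843 against 13.1 ± 0.306 CPM, SD, n = 4) and -0.14 in differentiated cells (SE 0.0437, edgeR adjusted p = 0.0383; 16.97 ± 0.478 against 15.3 ± 0.646 CPM, SD, n = 4). Its stretched libraries lay below the non-stretched libraries of 3 h in both stages, at 12.9, 12.8, 13.4 and 13.4 CPM in myoblasts and at 15.0, 15.7, 16.1 and 14.7 CPM in differentiated cells. The call in differentiated cells was lost when any 1 of 6 libraries was left out (non-stretched replicates 7, 8 and 9, stretched replicates 7, 8 and 10; adjusted p up to 0.101). Zfp60 in myoblasts had a log2 fold change of -0.13 (SE 0.0445, edgeR adjusted p = 0.0441), a call that 10 of 15 alternatives ended, 6 of them by leaving out 1 library (non-stretched replicates 8, 9 and 10, stretched replicates 7, 8 and 9; adjusted p up to 0.117).

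The other genes did not pass at 3 h, and their 95% intervals give the size of difference that these libraries leave possible. Zfp866, the gene with the largest gap at 1 h, had a log2 fold change of -0.05 in myoblasts (95% interval -0.15 to 0.05) and -0.08 in differentiated cells (-0.19 to 0.03). In myoblasts its libraries had 19.1, 19.3, 19.0 and 19.4 CPM without and 17.5, 18.8, 17.5 and 20.01 CPM with stretch, so the groups overlapped. Over all 10 genes and both stages, the 95% intervals at 3 h ran from -0.66 to 0.31, while at 1 h the fitted log2 fold changes ran from -1.51 to -0.38.

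**Figure D3:**
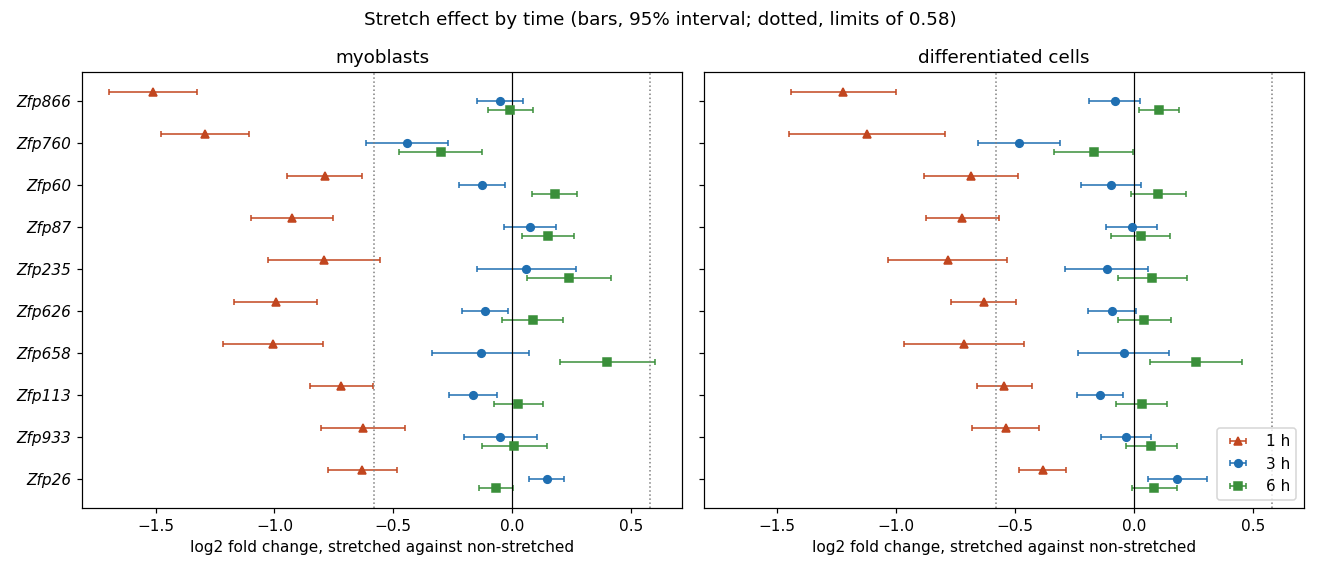
Log2 fold change of stretched against non-stretched cells for each gene at 1 h (triangles), 3 h (circles) and 6 h (squares), with 95% intervals, in myoblasts and differentiated cells; dotted lines mark the fold limits of 0.58. The values of 1 h chose the genes; at 3 h and 6 h all points lie inside the limits, with Zfp760 the lowest and Zfp658 the highest at 6 h in both stages.

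At 6 h the differences of the 10 genes were small. The stretched mean was above the non-stretched mean for 7 of 10 in myoblasts and 9 of 10 in differentiated cells. The log2 fold change was negative for 3 and 1 of the 10, against 93 and 97 of the 292 other numbered Zfp genes tested in each stage and 7468 of 14938 and 7720 of 15433 genes in all. Zfp658 was the highest, at 132% and 120% of its non-stretched mean, and Zfp760 the lowest, at 81.0% and 89.0%. The median log2 fold change was 0.06 in myoblasts and 0.08 in differentiated cells, against 0.00 over all genes and 0.08 and 0.06 over the other numbered Zfp genes.

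With edgeR 0 of the 10 passed both limits at 6 h in either direction, and with DESeq2 0 passed as lower (background in myoblasts 0.823% lower and 1.35% higher of 14938 genes; in differentiated cells 1.52% and 0.518% of 15433). At adjusted p alone in myoblasts, 1 of 10 was lower (Zfp760) and 4 were higher (Zfp60, Zfp87, Zfp235 and Zfp658), where 13% of all genes were lower and 14.1% higher. In differentiated cells 0 of 10 passed in either direction with edgeR, where 10.8% and 11.5% of all genes did, and 1 was higher with DESeq2. At an unadjusted p under 0.05 in edgeR 1 was lower and 2 were higher, where 2708 and 2815 of the 15433 genes were, so these counts are near the background.

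Zfp658, with 21 finger matches, rose at 6 h in myoblasts at adjusted p alone. It had 3.96, 3.64, 3.60 and 4.38 CPM without and 5.54, 4.52, 5.36 and 5.09 CPM with stretch, with no overlap, and a log2 fold change of 0.40 (SE 0.0905, 95% interval 0.20 to 0.60, edgeR adjusted p = 0.00771). The same gene had been at 49.7% of its control at 1 h. In differentiated cells it had 4.51, 4.58, 4.27 and 4.47 CPM without and 4.53, 5.47, 5.55 and 5.85 CPM with stretch, where replicate 7 of the stretched libraries lay among the non-stretched ones and the other 3 above them. The log2 fold change of 0.26 there (SE 0.0872, 95% interval 0.07 to 0.46) did not pass, with an edgeR adjusted p of 0.0531. Within experiments the difference was 0.40 and 0.39 in myoblasts and 0.13 and 0.38 in differentiated cells.

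Zfp760 was still lower at 6 h in myoblasts, with 6.29, 5.63, 6.69 and 6.61 CPM without and 5.33, 4.85, 5.52 and 4.73 CPM with stretch. All stretched libraries were below all 12 non-stretched ones of the stage, for which no share of all genes was computed. The log2 fold change was -0.30 (SE 0.0792, 95% interval -0.47 to -0.13, edgeR adjusted p = 0.0159). In differentiated cells it had 5.43, 4.83, 5.17 and 4.96 CPM without and 4.35, 4.44, 5.01 and 4.33 CPM with stretch. The groups overlapped through replicate 9, and the log2 fold change of -0.17 (95% interval -0.34 to -0.00179) did not pass (edgeR adjusted p = 0.136).

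Zfp60 rose at 6 h in myoblasts at adjusted p alone, from 19.1, 18.0, 18.6 and 18.1 CPM to 21.6, 19.5, 21.4 and 20.9 CPM, with no overlap and a log2 fold change of 0.18 (SE 0.0432, edgeR adjusted p = 0.0107). Zfp87 and Zfp235 rose by 0.15 (SE 0.0498, edgeR adjusted p = 0.0414) and 0.24 (SE 0.0805, edgeR adjusted p = 0.0459), and their stretched libraries also lay above the non-stretched ones of 6 h. The calls of Zfp87 and Zfp235 were each ended by 10 of 15 alternatives, among them DESeq2 and the loss of 7 of the 8 libraries taken 1 at a time (for Zfp87 all but stretched replicate 8, for Zfp235 all but stretched replicate 10), with adjusted p up to 0.114 and 0.121. In all, 4 of 10 genes had their 4 stretched libraries above the 4 non-stretched ones in myoblasts at 6 h, where 14.6% of all genes did, and 1 of 10 (Zfp866) in differentiated cells, where 14% did. All 4 lay below for 1 of 10 (Zfp760) in myoblasts and 0 of 10 in differentiated cells, where 14.7% and 12.4% of all genes did. Zfp866 had 21.4, 20.6, 19.7 and 20.3 CPM without and 22.7, 21.4, 22.3 and 21.8 CPM with stretch in differentiated cells, a log2 fold change of 0.11 (95% interval 0.02 to 0.19) that did not pass (edgeR adjusted p = 0.0728).

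Whether the effect of stretch moved between 3 h and 6 h was tested with an interaction term in 1 model of both times, in libraries that the pick did not use. In myoblasts the effect at 6 h exceeded that at 3 h by 0.53 for Zfp658 (SE 0.131, edgeR adjusted p = 0.00528), by 0.30 for Zfp60 (SE 0.0620, adjusted p = 0.00133), by 0.20 for Zfp626 (SE 0.0702, adjusted p = 0.0429) and by 0.19 for Zfp113 (SE 0.0644, adjusted p = 0.0347) on the log2 scale. For Zfp26 the difference was -0.22 (SE 0.0455, adjusted p = 0.00176), and its log2 fold change at 6 h was -0.07 (95% interval -0.14 to 0.00). So 4 of 10 were positive and 1 negative, where 14.5% and 13.9% of 15411 genes were. In differentiated cells Zfp866 (0.19, SE 0.0602, edgeR adjusted p = 0.0448) and Zfp760 (0.31, SE 0.103, adjusted p = 0.0489) passed, 2 of 10, where 8.74% of 15987 genes were positive and 6.55% negative. These last calls are near the threshold, and the count fell to 0 without a filter on low counts and without any of 8 single libraries (at 3 h non-stretched replicates 9 and 10 and stretched replicates 7 and 9, at 6 h non-stretched replicates 8, 9 and 10 and stretched replicate 9). In myoblasts it fell to 3 without any of 7 single libraries (at 3 h non-stretched replicate 9 and stretched replicates 7 and 8, at 6 h non-stretched replicates 7 and 8 and stretched replicates 7 and 9).

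The non-stretched cells gave a steady reference between 3 h and 6 h, the only times compared. Between 3 h and 6 h without stretch, 0 of 10 genes passed both limits in either stage with edgeR or DESeq2, and 0 had an unadjusted p under 0.05, where 0.324% of 14809 genes in myoblasts and 0% of 15466 genes in differentiated cells passed both limits. The log2 differences ran from -0.07 to 0.08 in myoblasts and from -0.03 to 0.11 in differentiated cells, with 95% intervals that stayed between -0.24 and 0.28. Non-stretched means at 1 h and 3 h were 16.7 and 19.3 CPM for Zfp60 in myoblasts. In differentiated cells they were 3.87 and 4.44 CPM for Zfp658 and 5.63 and 4.94 CPM for Zfp760. The step from 1 h to 3 h without stretch was not tested.

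Per kilobase of exon, the mean level in non-stretched cells was between 0.498 CPM (Zfp235) and 3.37 CPM (Zfp87) in myoblasts and between 0.836 CPM (Zfp235) and 3.63 CPM (Zfp87) in differentiated cells. Zfp866 (3.34 and 3.60) came next to Zfp87 in both stages, and Zfp760 (1.57 and 1.24), Zfp658 (1.10 and 1.22) and Zfp235 were the lowest 3 in both. Zfp26, the highest by CPM, was at 2.28 and 1.99 CPM per kilobase, since its exons sum to 14154 bases. The order of the levels did not follow the order of the gaps at 1 h, as Zfp866 had a high and Zfp760 a low level per length.

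Among the other numbered Zfp genes, 26 of 293 tested passed both limits as lower at 1 h in myoblasts and 1 of 292 in differentiated cells, and none passed as higher. Their median log2 fold change at 1 h was -0.19 and -0.14, and 82.6% and 77.1% of them were negative. Zfp329 (-0.98, SE 0.108, edgeR adjusted p = 0.000347) and Zfp563 (-0.77, SE 0.0901, adjusted p = 0.000527) were the lowest in myoblasts among those averaging 100 or more counts. At 3 h other members of the family were lower than any of the 10, among them Zfp808 (-0.65, SE 0.113, adjusted p = 0.000738) in myoblasts and Zfp608 (-0.63, SE 0.0533, adjusted p = 9.24e-05) in differentiated cells. At 6 h Zfp810 fell in myoblasts (-0.59, SE 0.0908, adjusted p = 0.00100) and Zfp324 rose there (0.60, SE 0.0619, adjusted p = 0.000111).

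**Figure D4:**
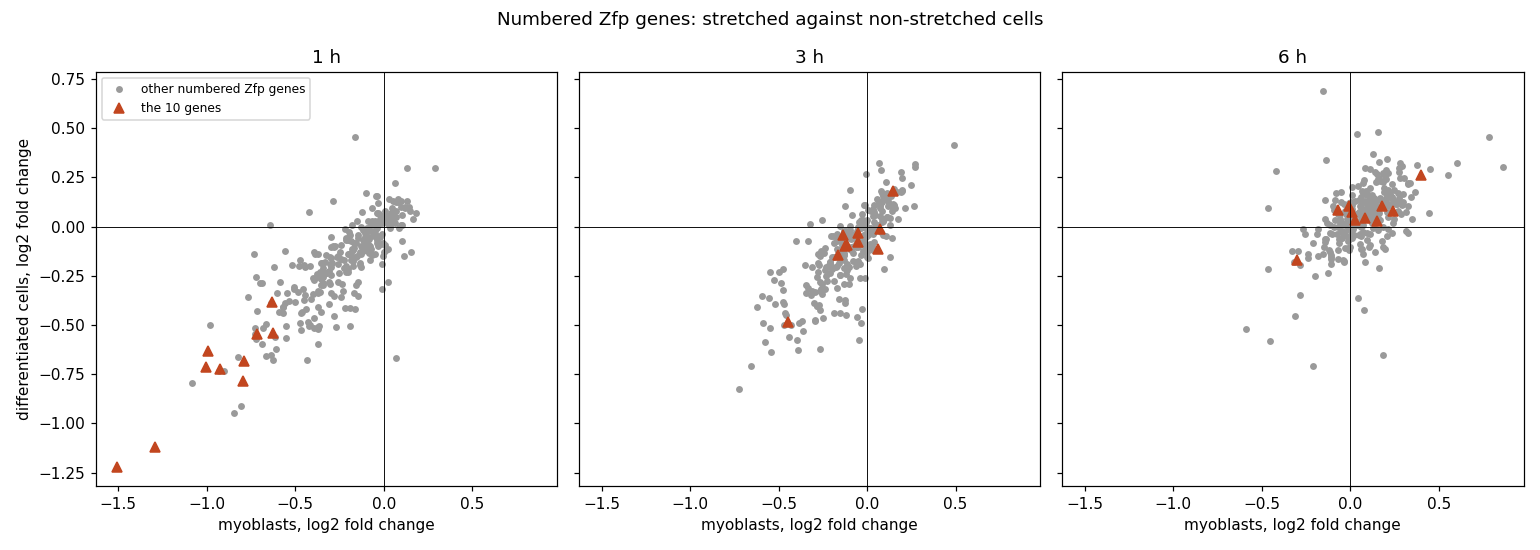
Log2 fold change of stretched against non-stretched cells in differentiated cells (vertical) against myoblasts (horizontal) for the numbered Zfp genes tested in both stages at 1 h, 3 h and 6 h, with the 10 genes as triangles and the others (289, 288 and 290) as grey points. At 1 h the 10 lie at the lower left by choice, and at 3 h and 6 h they lie inside the cloud of the family, with Zfp760 at its lower left.

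The nearest tested genes on either side were read as a local comparison. In myoblasts at 1 h the numbered Zfp neighbours, 10 of them tested, had a median log2 fold change of -0.51 (-0.73 to -0.13) and 3 of 10 passed both limits as lower, among them Zfp58 next to Zfp87 (-0.73) and Zfp59 next to Zfp626 (-0.67). Of all genes 0.997% passed, and of the other numbered Zfp genes, wherever they lie, 26 of 293 with a median of -0.19. Whether neighbours differ from the rest of the family was not tested. The 6 neighbours not named Zfp plus a number, among them Zscan21 and the processed pseudogene Rps19-ps3, had a median of -0.07 (-0.57 to 0.05) and none passed. This split is by name and not by kind of gene. Zfp60 and Zfp626, which adjoin each other, were left out of these counts of neighbours. In differentiated cells the medians were -0.33 over 10 and -0.16 over 8, with no call in either. Zfp866 overlaps Atp13a1, a P-type ATPase gene on the opposite strand, at the 5′ start of the annotated Zfp866 gene, and Atp13a1 had a log2 fold change of 0.00 in myoblasts at 1 h. Zfp26 overlaps the lincRNA gene Gm26733 on the opposite strand, whose log2 fold change was -1.67 in myoblasts at 1 h (edgeR adjusted p = 0.0225), and whether the counting used the strand is not given in the sources used here, so that reads of this pair cannot be told apart with certainty.

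Zinc finger genes share sequence, and the counts depend on how Salmon divided the reads that fit more than 1 gene. The share of 31-base stretches of a gene's transcripts also found in transcripts of other genes was lowest for Zfp26 (1.01%), Zfp658 (1.53%) and Zfp760 (1.63%) and highest for Zfp60 (13.1%), Zfp87 (9.73%) and Zfp933 (9.41%), with Zfp113 at 4.75%, Zfp235 at 7.52%, Zfp626 at 7.54% and Zfp866 at 8.49%. The values of Zfp760 and Zfp658 at 3 h and 6 h thus rest on almost unshared sequence. The stretches were compared in the direction of each transcript only, so the share of Zfp26 does not cover Gm26733 on the opposite strand. In myoblasts Gm26733 had log2 fold changes of 0.65 at 3 h (edgeR adjusted p = 0.0374) and 0.75 at 6 h (adjusted p = 0.0868). Its part in the Zfp26 values was not tested. Zfp87 shared 9.31% with Gm26965 alone and Zfp866 shared 7.10% with Gm20422, and the values of these are uncertain to that extent.

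The partners of KRAB zinc finger proteins in silencing were followed as a list of 34 symbols, of which 31 were in the tables and 30 were tested. The list also holds Zfp57, which is itself a numbered Zfp gene with a KRAB match and not a partner. Zfp57 is counted among the other numbered Zfp genes as well. With edgeR 0 of them passed both limits in any of the 6 comparisons, while up to 9 were lower and up to 10 higher at an unadjusted p under 0.05. The 9 were in myoblasts at 3 h, where 3103 of 14813 genes were lower at that limit. The 10 were in differentiated cells at 6 h, where 2815 of 15433 genes were higher. At adjusted p alone, 3 of 30 were lower in myoblasts at 1 h, namely Cbx1 (-0.17, edgeR adjusted p = 0.0134) and Cbx5 (-0.15, adjusted p = 0.0262), which encode heterochromatin protein 1 beta and alpha, and Zfp57 (-0.29, adjusted p = 0.0486), which keeps DNA methylation at imprinted regions, and 0 were higher, where 4.24% of all genes were lower and 1.67% higher. In differentiated cells at 1 h 0 of 30 passed with edgeR, in either direction, and 0 had an unadjusted p under 0.05, where 0.47% of all genes were lower and 0.193% higher at adjusted p alone. Trim28, the corepressor itself, had log2 fold changes at 1 h of 0.06 in myoblasts (95% interval -0.05 to 0.17) and 0.07 in differentiated cells (-0.05 to 0.18), and Setdb1 had 0.00 in both (intervals -0.07 to 0.07 and -0.10 to 0.10). At 3 h 9 of the 30 were lower and 4 higher in myoblasts (15.8% and 16% of all genes) and 4 and 3 in differentiated cells (11.4% and 10.8%). Fam208a, a subunit of the HUSH silencing complex, was the lowest, at -0.43 (SE 0.0418, adjusted p = 1.16e-05) and -0.49 (SE 0.0400, adjusted p = 7.37e-05). At 6 h 3 were lower and 2 higher in myoblasts (13% and 14.1% of all genes), and 3 and 6 in differentiated cells (10.8% and 11.5%), where Trim28 (0.13, adjusted p = 0.0180) and Setdb1 (0.11, adjusted p = 0.0230) were among the higher ones.

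Outside the genes named Zfp plus a number alone, the 5 genes of each stage whose 6 group means of log2 CPM were most like the mean of the 10 were looked up among genes that averaged 100 or more counts (11132 in myoblasts, 11597 in differentiated cells). In myoblasts these were 0610030E20Rik (Pearson r = 0.999), Zbtb34 (0.998), Gm37494 (0.997), Pkdcc (0.996) and Gm36936 (0.995), with log2 fold changes at 1 h from -0.84 (Gm37494) to -0.40 (Pkdcc). In differentiated cells they were Med23 (0.994), Zbtb26 (0.992), Gigyf1 (0.991), Zfp780b (0.987) and Apaf1 (0.987), with log2 fold changes from -0.77 (Zbtb26) to -0.16 (Med23). Zbtb34 and Zbtb26 encode zinc finger proteins with a BTB domain, Med23 a subunit of the Mediator complex and Apaf1 the core of the apoptosome. Zfp780b, a zinc finger gene whose name ends in a letter, is also the gene that shares most 31-base stretches with Zfp626 (2.45% of those of Zfp626). The 6 points of each correlation include the 1 h groups that chose the genes, so r is a description. Of the 10 themselves, Zfp26 and Zfp760 were the least like the mean of the other 9, with r = 0.93 and 0.86 in myoblasts and 0.83 and 0.85 in differentiated cells, and the other 8 had r of at least 0.94 in each stage.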

How the data were processed

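The RNA-seq libraries were aligned by the authors to mm10 with STAR and quantified with Salmon, and the authors deposited for each stage a table of whole-number counts per gene symbol, not normalized, with 24 libraries a table. All columns were used (0 left out). The labels call the molecule nuclear RNA, while the study's methods describe a stranded mRNA library kit. The paper's methods name DESeq2 with the limits used here, adjusted p under 0.05 with an absolute log2 fold change of 0.58 or more.

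Groups were taken from the labels. The title of stretched myoblast replicate 9 at 1 h carries an experiment code that stands in no other library. The name of its count column carries the code of replicate 10, and it was taken with replicate 10. In R 4.3.3, edgeR 4.0.16 (limma 3.58.1) removed low genes with filterByExpr, scaled libraries with TMM factors and compared the 8 libraries of each time point with the quasi-likelihood test, two-sided, with Benjamini-Hochberg adjustment over all genes tested. The interaction and the comparison of non-stretched cells between 3 h and 6 h used the 16 or 8 libraries of these times in a stage. CPM used TMM factors over the 24 libraries of a stage, and log2 CPM a prior count of 1. The fit was tested on simulated data.

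The depth of each library was between 48447318 and 77080730 counts, and a member had a mean of 138 (Zfp235, myoblasts, 1 h) or more counts a library in every comparison, so the members with few counts are measured less precisely. No pair of libraries agreed within sampling noise (lowest chi-square per degree of freedom 2.74).

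The members and lists were chosen with earlier results of these data known. The genes named are the 10 members, the nearest tested gene on either side, the gene sharing most 31-base stretches, the 2 numbered Zfp genes with the largest rise and fall per comparison (averaging 100 or more counts; examples are given), a list of cofactors, and the 5 genes most like the members. Of the symbols, 45213 (95.2%) matched GENCODE vM21. Protein sequences were not used here beyond translated coding sequences. The alternatives were DESeq2 1.42.0, RLE factors, no filter, a minimum of 10 counts per library, 1 model of all 24 libraries, a term for the experiment, a block on replicate number, no fold limit, and leaving out each library. The count at adjusted p alone in both directions at 3 h and 6 h was added after the values were seen.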

Additional observations from a re-analysis of the deposited data

Results flagged for a closer look

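Of 120 groups of 4 libraries checked for a single distant library, 9 held one, and chance gives about 1 in 20. These were Zfp760 in stretched differentiated cells at 6 h (replicate 9 at 5.01 CPM, the others 4.33 to 4.44), Zfp60 in non-stretched differentiated cells at 6 h (replicate 9 at 22.6, the others 24.97 to 25.1), Zfp87 in stretched myoblasts at 3 h (replicate 7 at 9.14, the others 10.1), Zfp235 in non-stretched differentiated cells at 6 h (replicate 7 at 5.58, the others 5.22 to 5.27), Zfp626 in stretched differentiated cells at 1 h (replicate 9 at 8.71, the others 7.84 to 7.87) and Zfp658 in stretched differentiated cells at 3 h (replicate 7 at 4.51, the others 4.22 to 4.26). Zfp933 had 3 such groups, non-stretched myoblasts at 1 h (replicate 9 at 11.8 CPM, the others 9.21 to 9.57), stretched myoblasts at 3 h (replicate 10 at 12.1, the others 9.82 to 10.1) and non-stretched differentiated cells at 6 h (replicate 9 at 10.9, the others 11.4 to 11.5).

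The effect of stretch differed between 6 h and 3 h by edgeR's interaction test in myoblasts for Zfp60 (0.30 on the log2 scale, adjusted p = 0.00133), Zfp626 (0.20, adjusted p = 0.0429), Zfp658 (0.53, adjusted p = 0.00528), Zfp113 (0.19, adjusted p = 0.0347) and Zfp26 (-0.22, adjusted p = 0.00176), and in differentiated cells for Zfp866 (0.19, adjusted p = 0.0448) and Zfp760 (0.31, adjusted p = 0.0489). The count of 2 in differentiated cells fell to 0 without a filter on low counts and in 8 of the fits that leave out 1 library, and to 1 with DESeq2 or the replicate block.

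Several genes had every stretched library below the non-stretched mean at 1 h and every one above it later, and this difference was not tested, since the values of 1 h chose the genes. By 6 h this held in myoblasts for Zfp60 (log2 fold change 0.18), Zfp87 (0.15), Zfp235 (0.24) and Zfp658 (0.40), and in differentiated cells for Zfp866 (0.11), Zfp60 (0.10), Zfp235 (0.078), Zfp658 (0.26) and Zfp26 (0.086). Zfp26 was already above at 3 h, in myoblasts (0.15) and differentiated cells (0.18). The 1 h part of this rule follows from the choice of genes, and the share of all genes that meet it was not computed. Of the 292 other numbered Zfp genes, only 31.8% in myoblasts and 33.2% in differentiated cells had a negative log2 fold change at 6 h. Their medians were 0.08 and 0.06. With edgeR 0 of the 10 passed at adjusted p alone in differentiated cells at 6 h. Zfp26 also went opposite ways in the stages at 6 h, with -0.068 in myoblasts and 0.086 in differentiated cells, a difference that was not tested because the stages are in separate tables.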

How the results depend on the processing

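The counts of members past both limits at 1 h were 10 of 10 in myoblasts and 7 of 10 in differentiated cells. Of all genes 0.997% and 0.18% passed both limits as lower. The values of 1 h chose the genes, so nothing is read from these counts. Over the fits that leave out 1 library they ran from 9 to 10 and from 3 to 7. In myoblasts Zfp933 dropped to -0.54 without non-stretched replicate 9. In differentiated cells 3 were left when stretched replicate 8 or any of non-stretched replicates 7, 8 and 9 was dropped, where Zfp760, Zfp60, Zfp235 and Zfp658 lost the call with adjusted p of at most 0.122. At 3 h and 6 h both limits gave 0 in every such fit. With all libraries and no fold limit the counts were 3 lower in myoblasts at 3 h, 1 at 6 h, and 2 in differentiated cells at 3 h. Of all genes 15.8%, 13% and 11.4% were lower in these comparisons.

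At adjusted p alone, 4 members were higher in myoblasts at 6 h, and 2 were with DESeq2, 2 without a filter on low counts and 2 with the replicate block. In the main fit 14.1% of all genes were higher there. In differentiated cells the lower count of 2 at 3 h was 1 without a filter, and the higher count of 0 at 6 h was 1 with DESeq2 and 1 with all 24 libraries in 1 model. The count of members whose effect differed between 6 h and 3 h was 5 in myoblasts and 3 without a filter, and 2 in differentiated cells, 1 with DESeq2, 0 without a filter and 1 with the replicate block. In the main fit 14.5% of all genes were positive and 13.9% negative in myoblasts, and 8.74% and 6.55% in differentiated cells.

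Leaving out 1 library gave, at adjusted p alone, 2 to 3 lower and 1 higher in myoblasts at 3 h, 1 lower and 2 to 3 higher at 6 h, 1 to 2 lower and 0 to 1 higher in differentiated cells at 3 h, and 0 lower and 0 to 1 higher at 6 h. The interaction counts ran from 3 to 5 and from 0 to 2, and the comparison of non-stretched cells stayed at 0. Signs turned in 9 of these fits, all for values near 0 that had not passed: over these fits Zfp866 ran from -0.031 to 0.017, Zfp933 from -0.028 to 0.048 and Zfp113 from -0.0029 to 0.048 in myoblasts at 6 h, and Zfp87 from -0.033 to 0.011 at 3 h and from -0.0012 to 0.060 at 6 h in differentiated cells.

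The replicate numbers were not taken to pair the samples in the main fits. Of 23 pairs of libraries with 1 number, 11 had deviations that correlated above 0.1 (r from -0.08 to 0.40). These values do not show that the libraries are unpaired. A term for the experiment and a block on replicate number were therefore among the alternatives. The block changed the counts named above and no other by more than 1.5 times. Zfp760 at 3 h in both stages and at 6 h in myoblasts, Zfp26 and Zfp113 at 3 h in myoblasts, and Zfp60 and Zfp658 at 6 h in myoblasts passed at adjusted p alone in all 15 alternatives. Members with few counts, such as Zfp235, have wider errors at this depth.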
